A study of Mus musculus with 8 samples.

Results

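Adding IL-33 to an adoptive cell therapy (ACT) that already delivered a PD-1 decoy and an IL-2 variant was examined in the leukocytes of B16-OVA melanomas on day 12 after the first infusion. The library after PD1d/2V/33 ACT was set against the library after PD1d/IL2V ACT, both of sorted CD45+ leukocytes. Levels were summed within groups of cells defined by marker genes. Cells were taken by the library tag in their barcode and kept when they had 500 to 6000 detected genes, 2000 to 40000 UMIs and under 10% mitochondrial UMIs. This left 3698 cells, 1665 after PD1d/2V/33 and 2033 after PD1d/IL2V, of 13046 passing cells in the 8 libraries of the series. Both groups were C57BL/6 female mice, bought at 6 weeks of age and injected at 7 weeks with B16-OVA, a melanoma line carrying ovalbumin. They received 2 infusions of OT1 cells 12 and 15 days after tumor inoculation without lymphodepletion. OT1 cells are CD45.1+ CD8+ T cells with a transgenic receptor for an ovalbumin peptide. In both groups the infused cells secreted PD1d, the ectodomain of PD-1 fused to a human IgG4 Fc, which occupies PD-1 ligands. PD1d/IL2V cells also secreted IL-2v, an IL-2 variant that does not bind CD25. The PD1d/2V/33 product was an equal mix of PD1d/IL-2v cells and PD1d/IL-33 cells, so IL-33 came with a smaller number of IL-2v-secreting cells than in the comparison group.

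Each library was 1 pool of 5 tumors, and there was no replicate check of any difference. No test was therefore made, and every interval below is a 95% interval that covers counting error alone. The sort took CD45+ cells enriched in CD8+ cells, so shares of cell types could be set by the sort, and OT1 cells could not be separated from endogenous T cells. The transgenes were codon-optimized, so UMIs of mouse Il33 or Il2 do not check them. The 2 libraries held 14981578 and 17343794 UMIs in 2500 and 2200 barcodes, and their passing cells had a median of 6789 and 7068 UMIs. After PD1d/2V/33 66.6% of barcodes passed, with 773 under 2000 UMIs and 485 at or over 10% mitochondrial UMIs, and after PD1d/IL2V 92.4% passed, with 84 and 133 removed on the same grounds. The authors' aggregation list gives each library a code, called its run here, and what the code stands for is not stated. The PD1d/2V/33 library shared its run with the untransduced day 12 library, and the PD1d/IL2V library shared a different run with PD1d/33. Run and treatment can therefore not be told apart within the comparison. Values of those other libraries are therefore given side by side for the main genes. Of their barcodes 51.2% passed after PD1d/33 and 50.75% after untransduced ACT, with medians of 4799 and 4348 UMIs in passing cells. PD1d/IL2V thus had the highest share of passing barcodes among the day 12 libraries. The part of library quality in any likeness between libraries was not tested. The 2 compared libraries shared 7 cell barcodes. Melanoma markers summed to at most 32.1 CPM, B cell markers to at most 10.7 CPM and red cell markers to at most 1.40 CPM in any gate, and markers of fibroblasts and endothelium to between 15.6 and 67.7 CPM.

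IL-33 is an alarmin of the IL-1 family that is read by ST2, the product of Il1rl1. In tissues ST2 marks Th2 cells, group 2 innate lymphoid cells, mast cells and a subset of regulatory T cells, and its engagement is known for the release of IL-5 and IL-13, which in turn act on eosinophils and on the alternative activation of macrophages. IL-2v signals through the beta and gamma chains of the IL-2 receptor, which CD8+ T cells and NK cells carry without CD25.

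Sequences from the RefSeq promoter table (GRCm38.p6, 250 bases before to 50 after each gene start) are shown for 3 gene groups that stood out in the comparison. The first are the metallothioneins Mt1 (chr8:94178839-94179138, plus strand) and Mt2 (chr8:94172368-94172667, plus strand), neighbours that were both higher in CD8 T cells, with the metal response element core (TGCACNC or TGCGCNC, either strand) in capitals. Mt1 held 3 and Mt2 4 matches, and 25.7% of the 32851 promoters in the table held at least 1.
Mt1: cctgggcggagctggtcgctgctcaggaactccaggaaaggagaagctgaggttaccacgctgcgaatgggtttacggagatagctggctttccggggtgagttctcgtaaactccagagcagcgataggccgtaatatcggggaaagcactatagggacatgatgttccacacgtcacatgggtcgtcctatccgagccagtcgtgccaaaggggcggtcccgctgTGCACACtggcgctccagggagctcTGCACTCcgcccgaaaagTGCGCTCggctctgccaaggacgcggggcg
Mt2: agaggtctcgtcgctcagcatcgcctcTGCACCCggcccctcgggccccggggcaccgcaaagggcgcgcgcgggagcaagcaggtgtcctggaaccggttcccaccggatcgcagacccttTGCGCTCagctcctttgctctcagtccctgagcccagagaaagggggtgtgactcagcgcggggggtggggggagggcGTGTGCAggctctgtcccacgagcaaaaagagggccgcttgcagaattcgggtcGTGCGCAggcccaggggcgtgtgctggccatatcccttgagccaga
The second are Gzmf (chr14:56211358-56211657, minus strand) and Gzmg (chr14:56159530-56159829, minus strand), from the granzyme cluster that led the differences in CD8 T and NK cells, with the cAMP response element (TGACGTCA, its own reverse complement) in capitals. Gzmc, Gzmf and Gzmg each held 1 match, Gzmb, Gzmd and Gzme held 0, and 1.79% of all promoters held at least 1. The Gzmc to Gzmg promoters were 79.7% to 93.7% identical to each other and 46.3% to 51.3% identical to that of Gzmb.
Gzmf: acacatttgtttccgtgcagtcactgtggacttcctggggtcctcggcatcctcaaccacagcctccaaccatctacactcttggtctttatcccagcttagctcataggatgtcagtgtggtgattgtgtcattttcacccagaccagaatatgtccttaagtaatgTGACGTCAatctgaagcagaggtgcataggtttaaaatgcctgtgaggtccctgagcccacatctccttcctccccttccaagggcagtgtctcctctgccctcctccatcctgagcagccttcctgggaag
Gzmg: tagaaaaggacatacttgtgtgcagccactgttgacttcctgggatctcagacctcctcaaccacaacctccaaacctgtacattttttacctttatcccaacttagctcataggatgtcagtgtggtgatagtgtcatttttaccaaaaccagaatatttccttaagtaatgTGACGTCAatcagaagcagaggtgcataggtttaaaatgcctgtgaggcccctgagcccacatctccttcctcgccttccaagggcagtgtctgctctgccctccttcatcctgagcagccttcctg
The third are Il5 (chr11:53720544-53720843, plus strand) and Il13 (chr11:53634653-53634952, minus strand), type 2 cytokine genes of 1 locus that led the differences in CD4 T cells, with a GATA site (the letters GATA after A or T and before A or G, either strand) in capitals. Each held 1 match, and 29.8% of all promoters held at least 1.
Il5: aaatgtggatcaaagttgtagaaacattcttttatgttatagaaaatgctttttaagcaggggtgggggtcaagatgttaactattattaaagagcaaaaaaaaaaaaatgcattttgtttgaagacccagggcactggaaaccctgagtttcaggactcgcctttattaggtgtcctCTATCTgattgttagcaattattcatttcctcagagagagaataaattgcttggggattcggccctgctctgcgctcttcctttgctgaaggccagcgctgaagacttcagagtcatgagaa
Il13: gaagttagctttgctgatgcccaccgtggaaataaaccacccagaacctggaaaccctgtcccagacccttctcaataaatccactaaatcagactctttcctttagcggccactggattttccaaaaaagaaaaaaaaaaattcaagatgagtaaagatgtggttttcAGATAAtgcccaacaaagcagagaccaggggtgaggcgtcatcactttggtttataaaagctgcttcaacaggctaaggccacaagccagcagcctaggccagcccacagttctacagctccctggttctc
A match describes the letters in the window and is not a measured binding site.

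Cells were assigned to gates by UMIs of marker genes, which are no finding within their own gate. CD8 T cells had a CD3 transcript and Cd8a or Cd8b1 without Cd4, CD4 T cells the reverse, NK cells had Ncr1, Klrb1c or Klra8 without CD3 transcripts, and myeloid cells had at least 10 UMIs of Lyz2, Cst3, Csf1r, Cd68, Cd14 and C1qa together. CD8 T cells were 43.4% (41.03 to 45.8) of cells after PD1d/2V/33 and 27.5% (25.6 to 29.5) after PD1d/IL2V. Myeloid cells were 10.99% (9.53 to 12.6) and 20.6% (18.8 to 22.4), and NK cells 18.3% (16.5 to 20.3) and 23.02% (21.2 to 24.9). The intervals of each of these 3 pairs stayed apart, with CD8 T cells higher and NK and myeloid cells lower after PD1d/2V/33. CD4 T cells were 7.33% (6.12 to 8.69) and 8.46% (7.29 to 9.76), with overlapping intervals. There were 3.95 CD8 T cells (3.35 to 4.67) for each myeloid cell after PD1d/2V/33 and 1.34 (1.18 to 1.52) after PD1d/IL2V. After PD1d/33, whose cells shared a run with PD1d/IL2V, CD8 T cells were 48.2% (44.6 to 51.8) and myeloid cells 7.94% (6.13 to 10.1), both nearer to PD1d/2V/33. After untransduced ACT, in the run of PD1d/2V/33, CD8 T cells were 20.2% (14.9 to 26.4) of only 203 cells. A second filter kept cells with 400 to 3000 genes, 500 to 12000 UMIs, under 5% mitochondrial and under 50% ribosomal UMIs. It is called the tighter cell filter below for its upper limits, but its lower limits also let in cells with fewer genes and UMIs. Under it the myeloid gate after PD1d/2V/33 went from 183 to 197 cells. The myeloid difference shrank from -9.57 to -4.64 percentage points and the NK difference grew from -4.70 to -10.2 points.

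**Figure D1:**
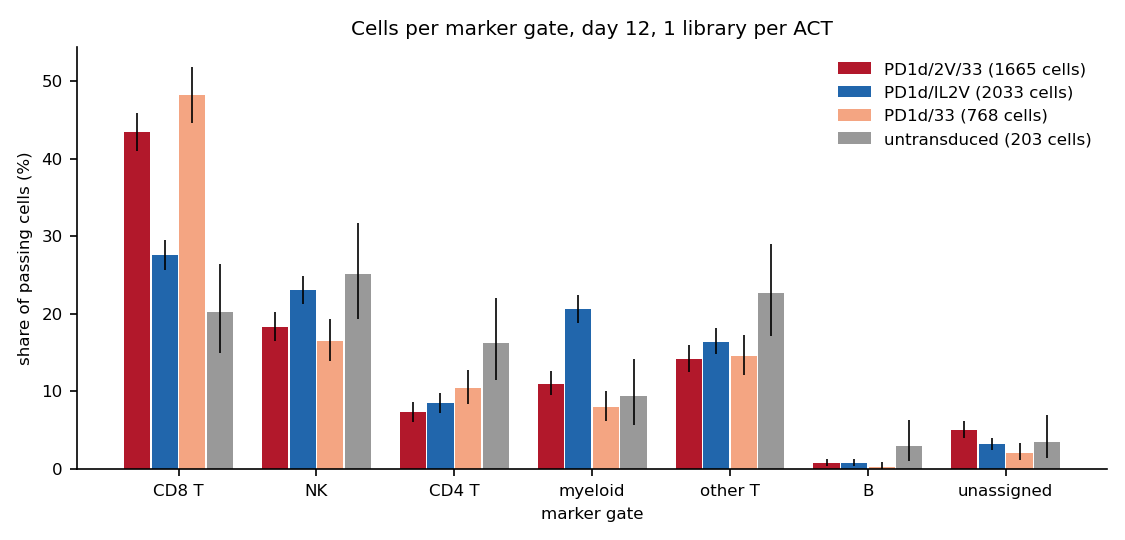
Share of passing cells (percent, y axis) in each marker gate (x axis) for the 4 day 12 libraries, 1 library per ACT; error bars are exact 95% binomial intervals. CD8 T cells stood at 43.4% after PD1d/2V/33 and 48.2% after PD1d/33, above 27.5% after PD1d/IL2V, and myeloid cells were highest after PD1d/IL2V at 20.6%.

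Regulatory T cells, the CD4 T cells that depend on the transcription factor Foxp3, were a smaller share of CD4 T cells after PD1d/2V/33. A Foxp3 UMI was found in 26 of 122 (21.3%, 14.4 to 29.6) CD4 T cells after PD1d/2V/33 and in 124 of 172 (72.1%, 64.8 to 78.7) after PD1d/IL2V. The share was 15 of 80 (18.8%, 10.9 to 29.03) after PD1d/33 and 16 of 33 (48.5%, 30.8 to 66.5) after untransduced ACT. Both groups with IL-33 were thus at about 20% while the groups without it were above, with 1 library per group. The cause was not tested. After each cell was thinned to 2000 UMIs, the shares were 13.1% (7.69 to 20.4) and 55.2% (47.5 to 62.8). The background share in myeloid cells was 0 of 183, which allows a share of up to 1.64%, and 0.239% (0.00606 to 1.33). Of all passing cells, Foxp3-positive CD4 T cells were 1.56% (1.02 to 2.28) and 6.10% (5.10 to 7.23). There were 27.8 CD8 T cells (18.8 to 42.9) for each Foxp3-positive CD4 T cell after PD1d/2V/33, 24.7 (14.8 to 44.5) after PD1d/33 and 4.52 (3.71 to 5.53) after PD1d/IL2V. These values leave out Foxp3-positive cells of other gates. T cells outside the CD8 T and CD4 T gates held 13 of 236 after PD1d/2V/33 and 76 of 334 after PD1d/IL2V. The CD8 T gate held 3 of 723 and 18 of 560.

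Cells with at least 2 UMIs of the proliferation genes Mki67, Top2a and Birc5, called cycling here, were 126 of 723 (17.4%, 14.7 to 20.4) CD8 T cells after PD1d/2V/33 and 61 of 560 (10.9%, 8.44 to 13.8) after PD1d/IL2V, with intervals that stayed apart. In NK cells they were 24 of 305 (7.87%, 5.11 to 11.5) and 30 of 468 (6.41%, 4.37 to 9.02), and in CD4 T cells 16 of 122 (13.1%, 7.69 to 20.4) and 28 of 172 (16.3%, 11.1 to 22.7), with overlapping intervals in both gates. Cycling cells were counted without thinning. In level, given below, 0 of 16 cell cycle genes were past 2-fold in CD8 T cells, and 5 of 14 were higher with the tighter cell filter.

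Levels were compared within each gate as CPM, the UMIs of a gene per 1000000 UMIs of all cells of the gate. The log2 ratio is of PD1d/2V/33 over PD1d/IL2V after adding 10 CPM to both, which understates the change of low genes, and genes with at least 50 UMIs in both libraries together were measured. In CD8 T cells 96 of 9007 measured genes were at least 2-fold higher (1.07%) and 99 at least 2-fold lower (1.1%). With TMM scaling, which moves all CD8 T ratios by 0.13, the counts were 136 and 75.

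The effector granzymes of the Gzmc to Gzmg cluster, serine proteases of cytotoxic granules, were higher in CD8 T cells after PD1d/2V/33. Of 13 granzyme and perforin genes measured, 5 were over 2-fold higher, namely Gzmc, Gzmd, Gzme, Gzmf and Gzmg, 1 was over 2-fold lower, and the median log2 ratio was 0.35 beside -0.10 over all genes. Gzmf stood at 811 CPM (790.1 to 833) after PD1d/2V/33 and 92.7 CPM (84.7 to 101) after PD1d/IL2V, a log2 ratio with an interval of 2.88 to 3.12. It was found in 106 of 723 and 14 of 560 cells, and 1 cell held 62.6% of its UMIs after PD1d/IL2V. Without the leading cell of each library its log2 ratio was 4.04. Gzmg was at 112 CPM (104 to 120.1) after PD1d/2V/33 and 3.002 CPM (1.72 to 4.87) after PD1d/IL2V, in 39 and 3 cells. Few cells therefore carried these transcripts in either library, and more of them did so after PD1d/2V/33. Gzmd was at 207 against 37.3 CPM, Gzme at 96.04 against 24.01 CPM and Gzmc at 775 against 247 CPM.

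The same 5 granzymes were nearly absent after PD1d/33, which had IL-33 and no IL-2v. In its 370 CD8 T cells Gzmf was at 5.85 CPM (3.12 to 10.01), Gzmc at 3.601 CPM (1.55 to 7.095), and Gzmd, Gzme and Gzmg had no UMI. In CPM Gzmc to Gzmg thus had the order PD1d/2V/33, PD1d/IL2V, PD1d/33, with counting intervals that did not overlap. Those intervals leave out that few cells held the UMIs. After PD1d/IL2V 1 cell held 75% of the 16 Gzmg UMIs. In share of thinned cells Gzmc alone kept PD1d/IL2V and PD1d/33 apart, at 5.18% (3.50 to 7.35) and 0.541% (0.0655 to 1.94). For Gzmd, Gzme, Gzmf and Gzmg the intervals of these shares overlapped. Gzmc to Gzmg are near-identical neighbours, and the division of reads among them is uncertain.

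Gzmb, the main granzyme of cytotoxic lymphocytes, had a smaller difference in level and a large one in the share of cells. It was at 1245 CPM (1218 to 1272) after PD1d/2V/33 and 698 CPM (676 to 721) after PD1d/IL2V, under 2-fold. In thinned CD8 T cells Gzmb was found in 57.7% (53.98 to 61.3) and 28.8% (25.03 to 32.7) (72.6% and 48.2% before thinning), with 51.4% (46.1 to 56.6) after PD1d/33. The background share in myeloid cells was 1.64% (0.339 to 4.72) and 1.67% (0.676 to 3.42). Prf1, the pore-forming protein, was at 99.7 against 138 CPM and Gzma at 1401 against 1097 CPM, both under 2-fold. Gzmm, a granzyme of innate-like lymphocytes, was the member over 2-fold lower, at 20.4 against 98.5 CPM.

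The interferon-induced transmembrane genes Ifitm1, Ifitm2 and Ifitm3, known for blocking virus entry, were higher in CD8 T cells together. Of 5 genes of the family list measured, 4 were over 2-fold higher and 0 lower, the fourth being Plac8 at 876 against 370.3 CPM. Ifitm2 was at 664 CPM (644 to 683) after PD1d/2V/33 and 63.2 CPM (56.7 to 70.3) after PD1d/IL2V, a log2 ratio of 3.20 (3.06 to 3.34), in 221 and 68 cells. Ifitm3 was at 219 CPM (208 to 231) after PD1d/2V/33 and 32.1 CPM (27.5 to 37.3) after PD1d/IL2V and Ifitm1 at 593 CPM (575 to 612) after PD1d/2V/33 and 184 CPM (173 to 196) after PD1d/IL2V. After PD1d/33 they stood at 8.55, 6.75 and 10.8 CPM, below both. Other interferon-induced genes did not go with them. Of 14 measured genes of the type I interferon list, 0 were over 2-fold higher and 3 lower, with a median of -0.57. Ifit3, an antiviral protein, was at 9.62 against 41.1 CPM, Rtp4 at 23.2 against 71.3 CPM and Irf7, the master regulator of this response, at 27.4 against 71.9 CPM.

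The metallothioneins, small zinc-binding proteins whose promoters are printed above, were also among the leading genes. Mt1 was at 267 CPM (255 to 279.6) after PD1d/2V/33 and 32.3 CPM (27.6 to 37.5) after PD1d/IL2V, in 232 and 48 cells. Mt2 was at 58.7 CPM (53.1 to 64.8) after PD1d/2V/33 and 3.75 CPM (2.29 to 5.79) after PD1d/IL2V. The other day 12 libraries lay between for Mt1, with 75.2 CPM (64.2 to 87.5) after PD1d/33 and 121 CPM (83.1 to 169.6) after untransduced ACT. Irs2, an adaptor of insulin signalling, was at 53.1 against 3.56 CPM, AA467197 at 194 against 36.8 CPM and the AP-1 member Fosb at 100.3 against 16.7 CPM. Of 14 genes of glycolysis and hypoxia, 3 were over 2-fold higher and 0 lower, with a median of 0.43. These were Hk2, the first enzyme of glycolysis, at 48.8 against 14.8 CPM, Pgk1, a later enzyme of the pathway, at 102 against 22.7 CPM and Bnip3, of mitophagy, at 83.8 against 27.95 CPM. In NK cells 3 of 13 were higher, Hk2 at 34.8 against 7.22 CPM, Pgk1 at 63.5 against 16.6 CPM and the lactate exporter Slc16a3 at 41.4 against 9.33 CPM.

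Genes of naive and central memory cells were lower after PD1d/2V/33. Of the 12 measured, 6 were over 2-fold lower and 0 higher, with a median of -1.07. Klf2, a factor of quiescent T cells that drives S1pr1, was at 65.3 CPM (59.3 to 71.6) after PD1d/2V/33 and 353 CPM (337 to 369.6) after PD1d/IL2V. Tcf7, the factor of stem-like memory cells, was at 48.1 against 128 CPM, Il7r at 35.1 against 104 CPM, S1pr1 at 22.6 against 75.98 CPM and Id3 at 5.62 against 28.9 CPM. After PD1d/33 Il7r was at 36.9 and Tcf7 at 66.2 CPM, near PD1d/2V/33, while S1pr1 was at 63.5 CPM, near PD1d/IL2V.

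Secreted factors of CD8 T cells were lower where they moved, 5 of 13 measured members over 2-fold and 0 higher. With the tighter cell filter 1 of 13 was over 2-fold lower. Xcl1, the chemokine that attracts cross-presenting dendritic cells, was at 237 CPM (225 to 249) after PD1d/2V/33 and 2042 CPM (2003 to 2080.3) after PD1d/IL2V, a log2 ratio of -3.05 (-3.13 to -2.98). Its share of thinned cells was 16.6% (13.96 to 19.5) and 35.4% (31.4 to 39.5), against 0.957% (0.261 to 2.43) in myeloid cells after PD1d/IL2V. Ifng was at 137 against 402 CPM, Ccl4 at 399 against 1403 CPM, Ccl3 at 192 against 517 CPM and Ccl1 at 162 against 463 CPM. For Ccl1 the sign turned under the tighter cell filter. Myc, a driver of growth after activation, was at 12.6 against 127 CPM, the inhibitory receptor Cd160 at 70.4 against 276 CPM and Cd7 at 61.7 against 264 CPM. Of 10 inhibitory receptors Cd160 alone was past 2-fold, and of 11 factors tied to exhaustion Tox alone, at 27.2 against 64.5 CPM with 167 CPM after PD1d/33. Its ratio was at the threshold, and of these 11 factors 1 was over 2-fold higher and 0 lower with TMM scaling, and 2 and 0 with the tighter cell filter. Of 15 effector factors and receptors Cxcr3, the receptor of Cxcl9, was the only one past 2-fold, at 48.4 against 129 CPM. Of 16 cell cycle genes 0 were past 2-fold in CD8 T cells, with a median of -0.14, and with the tighter cell filter 5 of 14 were over 2-fold higher and 0 lower, with a median of 0.60.

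The remaining lowest genes in the CD8 T gate were genes of neutrophils and monocytes. S100a9 was at 1.92 against 201 CPM and S100a8 at 1.48 against 156 CPM, but 1 cell held 57.5% and 58.7% of their UMIs after PD1d/IL2V. Il1b was at 7.399 against 66.2 CPM, Cxcl2 at 11.2 against 80.7 CPM and G0s2 at 0.7399 against 33.96 CPM, with 48.2%, 43.3% and 53.6% of their UMIs after PD1d/IL2V in 1 cell. The 8 neutrophil and mast cell markers summed to 29.3 and 383 CPM in the CD8 T gates. Without S100a8/9-high cells, of which there were 0 and 2 in the gate, the measured members of this list over 2-fold lower went from 3 of 4 to 1 of 3, and those of the inflammatory myeloid list from 4 of 6, with a median of -2.11, to 1 of 5, with a median of -0.72.

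**Figure D2:**
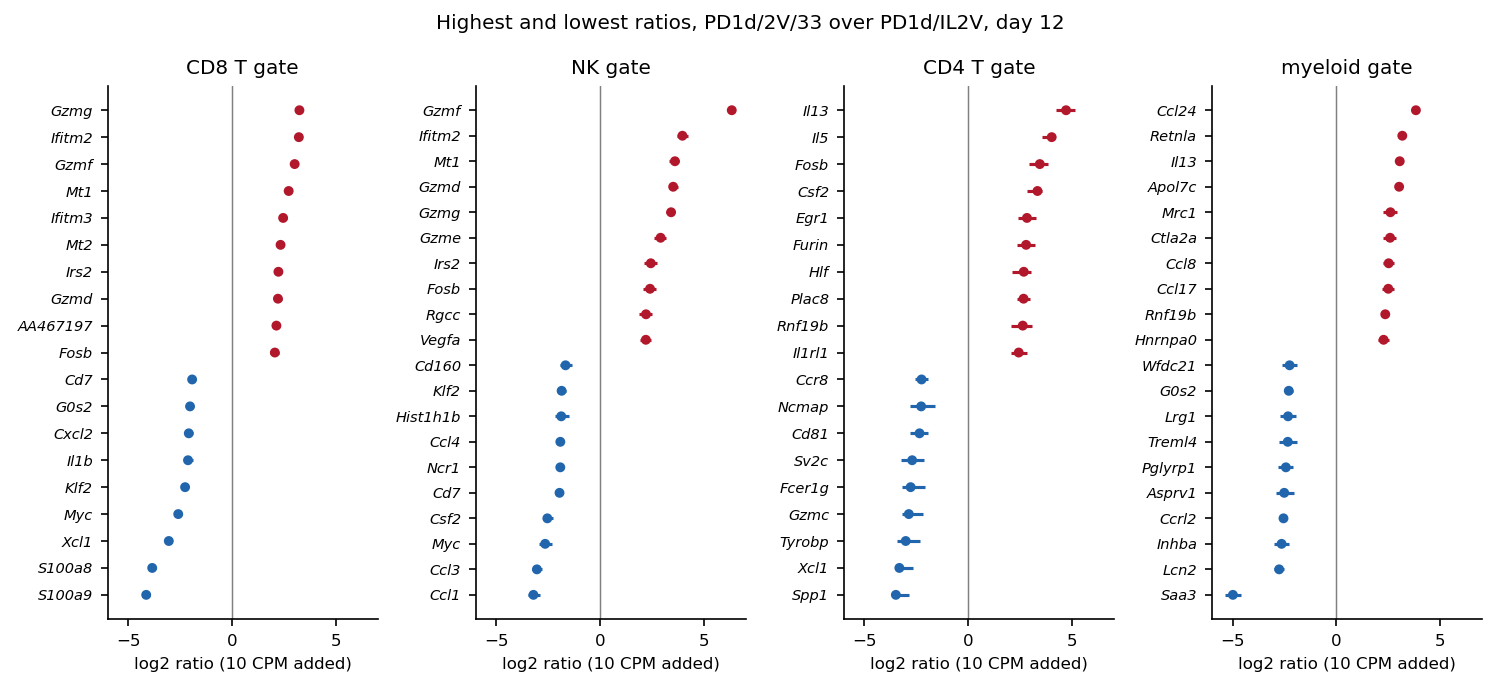
Genes among the 10 highest (red) and 10 lowest (blue) log2 ratios of PD1d/2V/33 over PD1d/IL2V in each gate, with 10 CPM added; lines are 95% counting intervals over 1 library a side. Gzmf leads the NK gate at 6.32, Il13 the CD4 T gate at 4.70 and Ccl24 the myeloid gate at 3.82, and Saa3 is lowest in myeloid cells at -4.98.

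In NK cells 112 of 7521 measured genes were at least 2-fold higher (1.49%) and 154 lower (2.05%), around a median of -0.20, and with TMM scaling, a shift of 0.21, the counts were 192 and 69. The granzyme cluster was again at the top. Gzmf was at 814 CPM (779 to 849) after PD1d/2V/33 and 0.301 CPM (0.00762 to 1.68) after PD1d/IL2V, a log2 ratio of 6.32 (6.14 to 6.36). This rested on 2102 UMIs in 17 of 305 cells, 62.6% of them in 1 cell, against 1 UMI in 468 cells, and was 4.97 without the leading cells. Gzmd was at 526 against 37.3 CPM in 41 and 8 cells, Gzme at 127 against 8.43 CPM in 34 and 6, and Gzmg at 105 against 0.903 CPM in 11 and 2. These transcripts were carried by a small share of NK cells even where they were highest. An NK marker UMI was found in 15.1% (12.5 to 17.9) and 13.4% (10.7 to 16.5) of CD8 T cells. A CD8 T cell whose CD3 and CD8 transcripts were not captured could therefore fall in the NK gate, and the part of such cells was not tested. Gzmc was broader, in 27.9% (22.9 to 33.3) and 14.7% (11.7 to 18.3) of thinned cells, at 2157 against 1349 CPM. Gzma, Gzmb and Prf1, the granule genes of most NK cells, were at 8588 against 10424 CPM, 1684 against 2035 CPM and 500.4 against 726 CPM. After PD1d/33 Gzmd, Gzme and Gzmg had no UMI in 127 NK cells and Gzmc was at 140.4 CPM (111 to 175).

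**Figure D3:**
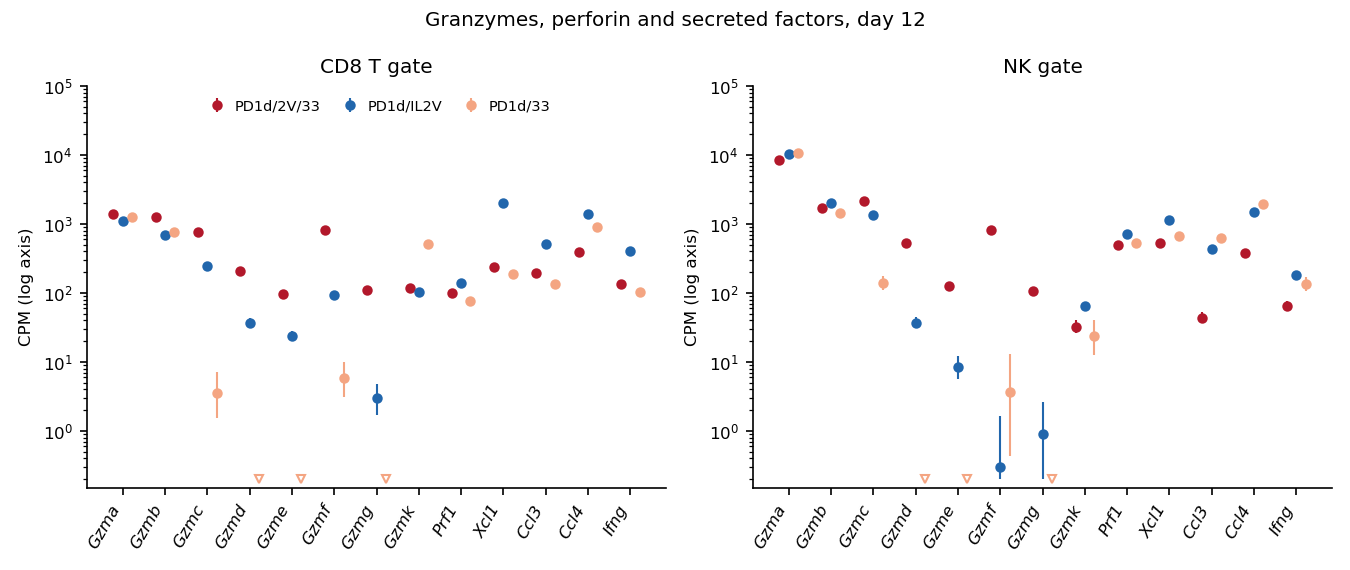
Levels (CPM, log axis) of granzymes, perforin and secreted factors in the CD8 T and NK gates for 3 day 12 libraries; bars are exact 95% Poisson intervals, cut at the foot of the axis, and open triangles mark genes with no UMI. Gzmd to Gzmg stand apart in the order PD1d/2V/33, PD1d/IL2V, with no Gzmd, Gzme or Gzmg UMI after PD1d/33, while Xcl1 is highest after PD1d/IL2V in both gates.

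Other genes that were higher in NK cells were in part those of CD8 T cells. Ifitm2 was at 344 CPM (321 to 367) after PD1d/2V/33 and 12.9 CPM (9.37 to 17.4) after PD1d/IL2V and Mt1 at 154 CPM (139 to 169.5) after PD1d/2V/33 and 3.61 CPM (1.87 to 6.31) after PD1d/IL2V, each in 49 cells after PD1d/2V/33. Vegfa, the angiogenic factor, was at 141 CPM (127 to 157) after PD1d/2V/33 and 23.2 CPM (18.3 to 28.97) after PD1d/IL2V, with 108 CPM (81.9 to 139) after PD1d/33 and 44.5 CPM (21.4 to 81.9) after untransduced ACT. Irs2 was at 79.3 against 6.62 CPM, Fosb at 77.02 against 6.62 CPM, the orphan nuclear receptor Nr4a3 at 159 against 30.1 CPM and Rgcc at 78.6 against 9.33 CPM. For Nr4a3 PD1d/33 stood at 157 CPM, near PD1d/2V/33. Rgcc stood at 80.1 CPM after untransduced ACT and 12.8 CPM after PD1d/33, so here the 2 libraries of each run were alike.

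Some receptors of NK cells were lower after PD1d/2V/33. Without the 3 genes that define the gate, 13 NK receptors and adaptors were measured, of which 3 were over 2-fold lower and 0 higher, with a median of -0.75 beside -0.20 over all genes. With TMM scaling, and with the tighter cell filter, 2 of the 13 were over 2-fold lower. Klrk1, the NKG2D receptor, was at 308 CPM (287 to 331) after PD1d/2V/33 and 774 CPM (744 to 804) after PD1d/IL2V, and the activating receptor Cd226 was at 4.26 against 33.1 CPM. Klrc1 and Klrc2, partners of CD94, were at 173 against 393 CPM and 91.3 against 201 CPM. After PD1d/33 Klrk1 was at 492 CPM, between the compared libraries. Ncr1, the NKp46 activating receptor and a gene of the gate, was among the 10 lowest genes, at 195 CPM (179 to 213) after PD1d/2V/33 and 772 CPM (742 to 802) after PD1d/IL2V, a level that holds for cells chosen in part by it.

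Chemokines and cytokines of NK cells were lower in 7 of 10 measured members and higher in 0, with a median of -1.22, and with the tighter cell filter in 3 of 8, with a median of -0.88. Ccl3, an attractant of monocytes and T cells, was at 44.1 CPM (36.4 to 53.00) after PD1d/2V/33 and 439 CPM (417 to 462) after PD1d/IL2V, and Ccl4 at 382 CPM (359 to 407) after PD1d/2V/33 and 1481 CPM (1440.0 to 1523) after PD1d/IL2V. After PD1d/33 they were at 623 and 1974 CPM, with PD1d/IL2V and not with PD1d/2V/33. Xcl1 was at 531 against 1139 CPM and Ifng at 65.4 against 182 CPM. Ccl1 and Csf2 were at 5.81 against 137 CPM and 0.387 against 50.9 CPM, but 56.8% and 86.4% of their UMIs after PD1d/IL2V were in 1 cell, and without it Csf2 was at a log2 ratio of -0.76, short of 2-fold. Myc was at 14.7 against 146 CPM, Klf2 at 62.3 against 253 CPM, Cd7 at 173 against 703 CPM, Cd160 at 26.3 against 106 CPM and the histone gene Hist1h1b, of cells in S phase, at 7.74 against 55.4 CPM in 7 and 31 cells. Il2rg, the common gamma chain through which IL-2v signals, was at 303 against 669 CPM in NK cells, with 407 CPM after PD1d/33, and 299 against 675 CPM in CD8 T cells, with 315 CPM after PD1d/33. Of the genes of IL-2 signalling and its feedback, Il2rg and Myc were the only members past 2-fold in either gate, both lower, of 11 measured in CD8 T and 10 in NK cells. With TMM scaling, and with the tighter cell filter, Il2rg was short of 2-fold in NK cells and Socs2, a feedback inhibitor, was over 2-fold higher in CD8 T cells, at a log2 ratio of 1.03 in both. Il2rb, the beta chain, was at 772 against 1348 CPM in NK and 389.9 against 535 CPM in CD8 T cells, and Cish, a feedback inhibitor, at 70.05 against 65.03 CPM and 125 against 87.6 CPM.

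In CD4 T cells 145 of 4661 measured genes were at least 2-fold higher (3.11%) and 238 lower (5.11%), and with TMM scaling, a shift of 0.16, the counts were 209 and 158. The type 2 cytokines led the higher genes. Il13 was at 464 CPM (415 to 516) after PD1d/2V/33 and 8.26 CPM (3.96 to 15.2) after PD1d/IL2V, a log2 ratio of 4.70 (4.21 to 5.10), with 331 UMIs in 23 of 122 cells and 10 UMIs in 3 of 172 cells. Il5 was at 164 CPM (136 to 196) after PD1d/2V/33 and 0.826 CPM (0.0209 to 4.603) after PD1d/IL2V, in 24 cells and 1 cell. PD1d/33 held both at levels no lower, with Il13 at 567 CPM (495 to 647) and Il5 at 451 CPM (387 to 523), and the 33 CD4 T cells after untransduced ACT held no UMI of either. In thinned cells the Il13 share was 13.9% (8.33 to 21.4) and 1.16% (0.141 to 4.14), against 1.09% (0.133 to 3.89) and 0 of 418 in myeloid cells, which allows a share of up to 0.718%.

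Il1rl1, which encodes the IL-33 receptor ST2, was at 273 CPM (236 to 314) after PD1d/2V/33 and 42.96 CPM (32.1 to 56.3) after PD1d/IL2V, in 45 of 122 and 21 of 172 cells. After PD1d/33 it was at 266 CPM (217 to 322) and after untransduced ACT at 33.2 CPM (12.2 to 72.3). Both libraries with IL-33 were thus above both libraries without it, with 1 library per ACT and only 33 CD4 T cells after untransduced ACT. The cause was not tested. Gata3, the master factor of type 2 cells, was at 237 against 112 CPM with 376 CPM after PD1d/33, and Rora, which such cells also use, at 462 against 207 CPM. Of 6 measured genes of the IL-33 receptor and type 2 list, 5 were over 2-fold higher and 1, Ccr8, lower, with a median of 1.77. ST2 transcripts were scarce in the CD8 T and NK gates after PD1d/2V/33, in 0.553% (0.151 to 1.41) of thinned CD8 T cells and 0 of 305 thinned NK cells, which allows a share of up to 0.984%. They were not scarce in T cells outside the CD8 T and CD4 T gates, called T cells for a CD3 transcript alone. There 59 of 236 cells held ST2 transcripts without thinning, at 194 CPM (174 to 216). Cells assigned to no gate held them in 10 of 84 and B cells in 3 of 12.

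Further genes that were higher in CD4 T cells were Furin, a protease that activates precursors of cytokines, at 251 CPM (215 to 290.3) after PD1d/2V/33 and 28.1 CPM (19.5 to 39.3) after PD1d/IL2V, the transcription factor Hlf at 74.2 against 3.305 CPM, Plac8 at 546 against 78.5 CPM, and the immediate-early genes Fosb at 169 against 6.61 CPM and Egr1 at 252 against 27.3 CPM. Of the Egr1 UMIs after PD1d/2V/33, 48.3% were in 1 cell. Csf2, the growth factor GM-CSF, was at 106 against 1.65 CPM, in only 5 cells and 1 cell. Cd40lg, through which helper cells license dendritic cells, was at 167 CPM (138 to 199) after PD1d/2V/33 and 49.6 CPM (37.8 to 63.8) after PD1d/IL2V, with 343 CPM after PD1d/33. Of the 6 measured genes of the T helper list, which holds Cd40lg, 3 were over 2-fold higher and 1 lower, with a median of 0.46. Without Foxp3-positive cells 1 was higher and 2 lower, with a median of -0.05. Il2 was at 67.2 against 14.04 CPM, but without its leading cell in each library its log2 ratio of 1.68 became -0.39.

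Genes of regulatory T cells and inhibitory receptors were lower. Of 19 genes of the regulatory T cell list, 10 were over 2-fold lower and 2 higher, with a median of -1.14 beside -0.19 over all genes, and of 7 inhibitory receptors measured 6 were lower and 0 higher, with a median of -1.89. Ctla4, the receptor that competes for CD80 and CD86, was at 674 CPM (615 to 737) after PD1d/2V/33 and 2820.5 CPM (2727 to 2917) after PD1d/IL2V. Tigit was at 176 CPM (147 to 210.1) after PD1d/2V/33 and 864 CPM (813 to 918) after PD1d/IL2V and Ccr8, a chemokine receptor of tumor regulatory T cells, at 108 CPM (85.1 to 135) after PD1d/2V/33 and 553 CPM (512 to 596) after PD1d/IL2V. The untransduced library stood with PD1d/IL2V for Ccr8, at 637 CPM (526 to 764), and PD1d/33 with PD1d/2V/33, at 131 CPM (97.9 to 173). Entpd1, the ectonucleotidase CD39, was at 16.8 against 116 CPM, Itgae at 30.8 against 155 CPM, Lag3 at 105 against 416 CPM, Pdcd1 at 167 against 384 CPM, Tnfrsf4 at 567 against 1519 CPM and Tnfrsf18 at 391 against 995 CPM. Of 13 effector factors and receptors 3 were higher and 5 lower, among them Ly6c2 at 186 against 50.4 CPM and Cxcr3 at 67.2 against 223 CPM. Without Foxp3-positive cells 0 of 10 were higher and 5 lower, with a median of -0.77. Among the 10 lowest genes of the gate Cd81 was at 51.8 against 306 CPM, Sv2c at 21.01 against 192 CPM and Ncmap at 11.2 against 92.5 CPM.

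The same genes were read separately in cells with and without a Foxp3 UMI. Among Foxp3-positive CD4 T cells, 26 and 124 in number, Ccr8 was at 135 CPM (88.8 to 196) after PD1d/2V/33 and 659.6 CPM (608 to 714) after PD1d/IL2V and Tigit at 384 CPM (303 to 480.2) after PD1d/2V/33 and 979.7 CPM (917 to 1046) after PD1d/IL2V. Ctla4 was at 1846 CPM (1663 to 2044) after PD1d/2V/33 and 3190.2 CPM (3076 to 3307) after PD1d/IL2V and Pdcd1 at 89.8 CPM (53.2 to 142) after PD1d/2V/33 and 334 CPM (298 to 373) after PD1d/IL2V. Ikzf2, the regulatory T cell factor Helios, was about level at 1182 against 1032 CPM. Il1rl1 was higher, at 229.5 CPM (168 to 306) after PD1d/2V/33 and 44.2 CPM (31.7 to 59.9) after PD1d/IL2V, as was Areg, the growth factor amphiregulin, at 2654 CPM (2434 to 2889.9) after PD1d/2V/33 and 898 CPM (838 to 961) after PD1d/IL2V. No UMI of Il13, Il5 or Csf2 was found in Foxp3-positive cells of either library.

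Among CD4 T cells without a Foxp3 UMI, 96 and 48 in number, Il13 was at 645 CPM (577 to 718) after PD1d/2V/33 and 35.4 CPM (16.97 to 65.1) after PD1d/IL2V and Il1rl1 at 290.2 CPM (245 to 341) after PD1d/2V/33 and 38.9 CPM (19.4 to 69.6) after PD1d/IL2V. Ctla4 was at 216 CPM (178 to 260.3) after PD1d/2V/33 and 1606 CPM (1462 to 1761) after PD1d/IL2V, Tigit at 95.4 against 485 CPM, Lag3 at 37.00 against 209 CPM and Pdcd1 at 197 against 548 CPM. The inhibitory receptors were thus lower on both sides of the Foxp3 divide. UMIs of Il13 and Il5 were found on the Foxp3-negative side alone, but only 26 Foxp3-positive cells were read after PD1d/2V/33. A cell whose Foxp3 transcripts were not captured counts as Foxp3-negative. Without Foxp3-positive cells 97 of 2165 measured genes were over 2-fold higher in the gate and 113 lower, beside 145 and 238 of 4661 with all its cells.

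Some of the lowest genes in the CD4 T gate were carried by few cells or are genes of other cells. After PD1d/2V/33 Xcl1 and Spp1 had no UMI, and against the limit that a count of 0 allows they were at least 21.4-fold and 24.4-fold lower. After PD1d/IL2V 1 cell held 92.7% of the Spp1 and 91.1% of the Gzmc UMIs, and without the leading cells they were at log2 ratios of -0.80 and -0.61, short of 2-fold. Tyrobp and Fcer1g, signalling adaptors of NK and myeloid cells, were at 4.202 against 105 CPM and 4.202 against 87.6 CPM, with 3 and 16 cells for each. Cells of the gate with an NK marker UMI were 2 of 122 (1.64%, 0.199 to 5.796) and 7 of 172 (4.07%, 1.65 to 8.21), and their part in the result was not tested beyond leaving them out.

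**Figure D4:**
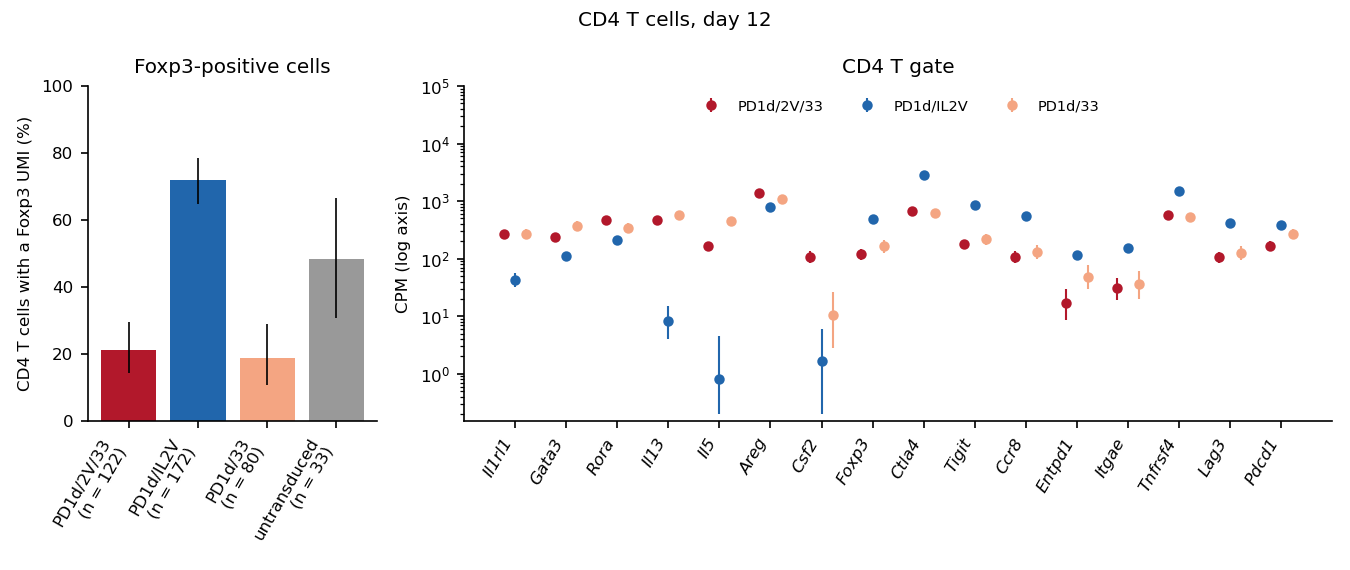
Left, share of CD4 T cells with a Foxp3 UMI (percent) in 4 day 12 libraries with exact 95% binomial intervals; right, levels (CPM, log axis) of type 2 and regulatory T cell genes in the CD4 T gate of 3 libraries with exact 95% Poisson intervals, cut at the foot of the axis. Il1rl1, Il13 and Il5 are higher, and Ctla4, Tigit, Ccr8 and Foxp3 lower, in both libraries with IL-33 than after PD1d/IL2V.

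In myeloid cells 238 of 6844 measured genes were at least 2-fold higher (3.48%) and 178 lower (2.6%), and with TMM scaling, a shift of -0.16, the counts were 159 and 255. Genes of alternative activation were higher in 8 of 15 members and lower in 0, with a median of 1.18 beside 0.04 over all genes. Ccl24, the eosinophil attractant eotaxin-2, was at 1229 CPM (1168 to 1293) after PD1d/2V/33 and 77.7 CPM (69.2 to 87.03) after PD1d/IL2V, a log2 ratio of 3.82 (3.66 to 3.99). It was found in 57 of 183 and 20 of 418 cells, and after thinning in 25.7% (19.5 to 32.6) and 2.87% (1.49 to 4.96), against 0.277% (0.0335 to 0.996) of CD8 T cells after PD1d/2V/33. After PD1d/33 Ccl24 was at 17.1 CPM (6.88 to 35.3), below PD1d/IL2V, so the high level was not seen in the other library with IL-33. Mrc1, the mannose receptor, was at 104 CPM (86.3 to 123) after PD1d/2V/33 and 8.81 CPM (6.100 to 12.3) after PD1d/IL2V, in 42 and 16 cells, with 41.6 CPM (24.2 to 66.6) after PD1d/33. Arg1, which degrades arginine, was at 382 against 130.3 CPM, Mgl2 at 110.2 against 24.1 CPM and Fn1, the matrix protein fibronectin, at 277 against 117 CPM.

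Retnla, a classical marker of alternative activation, had 97 UMIs in 2 cells after PD1d/2V/33 and none after PD1d/IL2V, at least 103-fold higher against the limit of a count of 0. Such a value describes 2 cells. Il13 and Apol7c, also without a UMI after PD1d/IL2V, were at least 93.1-fold and 91.0-fold higher, on 4 and 5 cells. Type 2 lymphocyte transcripts were in this gate too after PD1d/2V/33. Il5 had 26 UMIs in 2 cells, Il1rl1 12 UMIs in 4 cells and Gata3 11 UMIs in 2 cells. Whether the Il13 cells were lymphocytes or doublets was not tested. Ctla2a, a lymphocyte transcript, was at 82.2 against 5.44 CPM with 52.0% of its UMIs in 1 cell. Its share of thinned myeloid cells, 3.28% (1.21 to 6.999) and 1.196% (0.3895 to 2.77), was far under that of CD8 T cells, 68.6% (65.1 to 71.97) and 57.3% (53.1 to 61.5).

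The C1q-positive cells, macrophages with complement C1q transcripts, were 33 of 183 (18.03%, 12.8 to 24.4) myeloid cells after PD1d/2V/33 and 48 of 418 (11.5%, 8.59 to 14.9) after PD1d/IL2V, with overlapping intervals. Within these 33 and 48 cells Ccl24 was at 4138 CPM (3869.5 to 4420.1) after PD1d/2V/33 and 236 CPM (199 to 278) after PD1d/IL2V, Arg1 at 1598 CPM (1433 to 1777) after PD1d/2V/33 and 323 CPM (279 to 371) after PD1d/IL2V and Chil3, a chitinase-like protein, at 2540.0 CPM (2331 to 2763) after PD1d/2V/33 and 488 CPM (434 to 547) after PD1d/IL2V. Mrc1 was at 309 against 21.3 CPM and Ccl8 at 1406 against 228 CPM, the latter in 6 and 7 cells. In the same cells Cxcl9, a chemokine induced by interferon-gamma, was lower at 501 CPM (411 to 606) after PD1d/2V/33 and 2087 CPM (1974 to 2205) after PD1d/IL2V. Outside them Ccl24 remained higher, at 610.2 CPM (563 to 661) after PD1d/2V/33 and 48.01 CPM (40.8 to 56.2) after PD1d/IL2V, while Arg1 was at 124 against 94.2 CPM and Chil3 at 930.3 against 708 CPM. The difference in Arg1 was thus in C1q-positive cells and that in Ccl24 on both sides.

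Dendritic cell genes were over 2-fold higher in 7 of 13 members and lower in 0, with a median of 1.09, and with the tighter cell filter in 4 of 9, with a median of 0.74. Of these 7, Mgl2 and Ccl22 are also members of the alternative activation list and were counted in both. Ccr7, which guides mature dendritic cells to lymph nodes, was at 529 CPM (489 to 572) after PD1d/2V/33 and 158 CPM (145 to 171) after PD1d/IL2V. Ccl17 and Ccl22, ligands of CCR4, were at 149.6 CPM (129 to 173) after PD1d/2V/33 and 18.4 CPM (14.4 to 23.2) after PD1d/IL2V and 195 CPM (171 to 221) after PD1d/2V/33 and 33.9 CPM (28.4 to 40.3) after PD1d/IL2V. Fscn1, of dendrite formation, was at 318 against 138 CPM, Flt3, the receptor that sustains dendritic cells, at 54.3 against 11.1 CPM, Batf3 at 118 against 47.4 CPM and Clec9a at 31.2 against 9.33 CPM. Migratory dendritic cells, with both Ccr7 and Fscn1, were 14 of 183 (7.65%, 4.25 to 12.5) and 10 of 418 (2.39%, 1.15 to 4.36) of the gate. Cross-presenting cDC1 were 14 of 183 (7.65%, 4.25 to 12.5) and 24 of 418 (5.74%, 3.71 to 8.42), Cd209a-positive cells 9 of 183 (4.92%, 2.27 to 9.13) and 22 of 418 (5.26%, 3.33 to 7.86), and plasmacytoid cells 1 of 183 (0.546%, 0.0138 to 3.01) and 5 of 418 (1.196%, 0.3895 to 2.77), all with overlapping intervals.

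Inflammatory myeloid genes were over 2-fold lower in 5 of 15 members and higher in 1, Il6 at 93.7 against 41.2 CPM, with a median of -0.80. With TMM scaling 7 were lower and 0 higher, and with the tighter cell filter 4 of 14 were lower and 3 higher, with a median of -0.39. Saa3, an acute-phase protein, was at 22.2 CPM (14.6 to 32.3) after PD1d/2V/33 and 1008 CPM (977 to 1041) after PD1d/IL2V, in 7 and 48 cells. Lcn2, a neutrophil siderophore-binding protein, was at 86.3 CPM (70.6 to 105) after PD1d/2V/33 and 642 CPM (617 to 667) after PD1d/IL2V and Inhba, the activin A subunit, at 40.3 CPM (29.8 to 53.3) after PD1d/2V/33 and 304 CPM (287 to 322) after PD1d/IL2V. After PD1d/33 Saa3, Lcn2 and Inhba were at 2.45, 2.45 and 7.34 CPM, and in the 19 myeloid cells after untransduced ACT Saa3 had no UMI and Lcn2 and Inhba were at 5.41 and 81.2 CPM. PD1d/IL2V thus stood above the other 3 libraries for all 3 genes. S100a8 and S100a9, which neutrophils hold in abundance, were at 2083 against 5661 CPM and 2404 against 6559.7 CPM, and cells with at least 10 UMIs of the pair were 17 of 183 (9.29%, 5.51 to 14.5) and 82 of 418 (19.6%, 15.9 to 23.8) of the gate, with 0 of 61 after PD1d/33 (upper limit of the interval 5.87%). The 8 neutrophil and mast cell markers summed to 4821 and 12958 CPM, with 58.7 CPM after PD1d/33. Without the S100a8/9-high cells Saa3 was at 23.2 against 590.4 CPM, Lcn2 at 23.2 against 103 CPM, Inhba at 42.2 against 285 CPM and Ccrl2, a chemokine-binding receptor, at 133 against 1055 CPM. These genes were therefore lower also outside the S100a8/9-high cells, in which Saa3 was at 0 against 3684 CPM. When cells with a ribosomal share outside 5 to 60% were left out, the signs of G0s2, Retnlg and S100a9 turned. The other lowest genes, Pglyrp1, Treml4, Lrg1, Asprv1 and Wfdc21, were at 231, 137, 160.3, 84.7 and 242 CPM after PD1d/IL2V and from 6.58 to 42.8 CPM after PD1d/2V/33.

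Interferon-response genes of myeloid cells divided. All 15 measured type I interferon genes had a ratio below 0, 3 of them past 2-fold and 6 with TMM scaling, with a median of -0.85, and Ifit3 was at 2.47 CPM (0.509 to 7.21) after PD1d/2V/33 and 42.5 CPM (36.2 to 49.5) after PD1d/IL2V. Of 19 interferon-gamma response genes 1 was over 2-fold higher and 2 lower, with a median of -0.10. Iigp1, a GTPase induced by interferon-gamma, was at 321 against 105 CPM, while Cxcl9 was at 298 against 684 CPM and Fcgr4 at 109 against 288 CPM. None of 8 class II antigen presentation genes was past 2-fold in this gate, with a range of -0.48 to 0.38. None of 11 class I genes was past 2-fold in any of the 4 gates. Genes of heat shock and the immediate-early response were lower in 6 of 15 members and higher in 1, with a median of -0.90, Fos being at 484 against 1795 CPM and Hspa1a at 244 against 669.9 CPM. Of 11 monocyte genes 3 were lower and 0 higher, or 4 and 2 with the tighter cell filter, namely Ace at 41.9 against 160.3 CPM, Nr4a1, the factor of patrolling monocytes, at 429 against 1221 CPM and Hp, haptoglobin, at 128 against 544 CPM. Apoe, a marker of lipid-handling macrophages, was at 178 against 446 CPM, and the chemokines Ccl3, Ccl4 and Ccl12 at 761 against 1831 CPM, 1212 against 3226 CPM and 39.5 against 173 CPM.

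**Figure D5:**
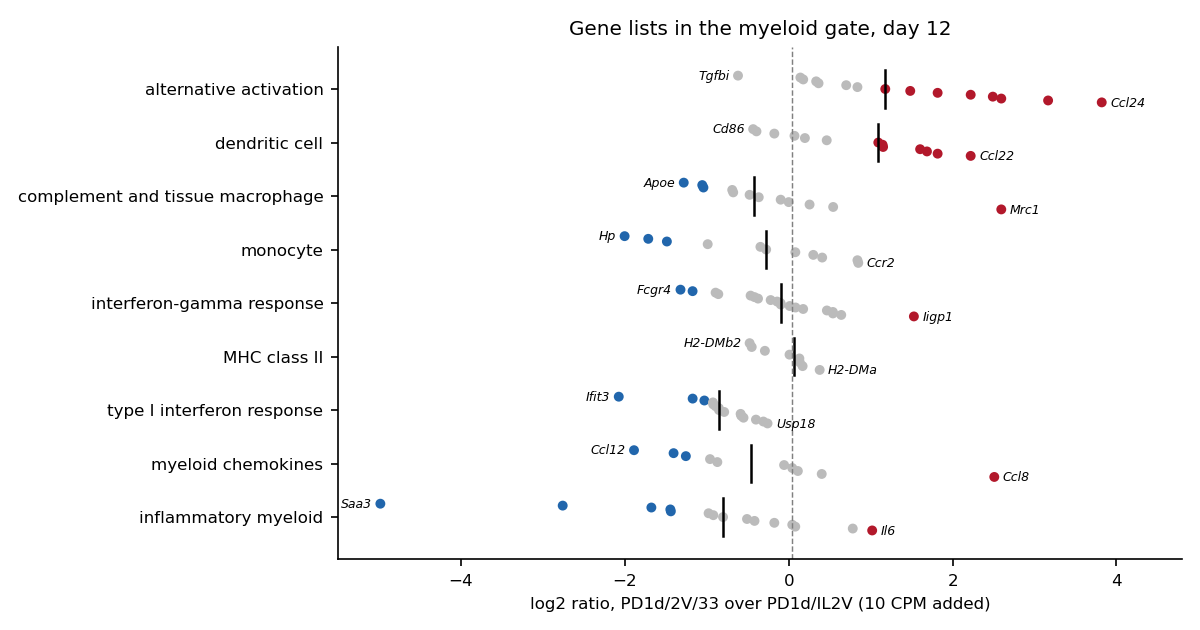
Log2 ratio of PD1d/2V/33 over PD1d/IL2V (x axis, 10 CPM added) of every measured gene of 9 lists in the myeloid gate, 1 point a gene, red and blue past 2-fold; the complement list holds the gate genes C1qa and Csf1r, black bars are list medians and the dashed line the median of all genes. Alternative activation and dendritic cell genes lie to the right with medians of 1.18 and 1.09, inflammatory and type I interferon genes to the left with -0.80 and -0.85. A gene can stand in more than 1 list, as Mgl2 and Ccl22 do in the alternative activation and dendritic cell lists.

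Of 4238 genes measured in all 4 gates, 12 were over 2-fold higher and 2 over 2-fold lower in every gate. Among the higher genes were BC005537, Fam177a, Fosb, Hexim1, Hnrnpa0, Kdm6b, Mepce, Pgk1, Rnf19b, Sod1 and Ybx3, and the lower ones Jun and Zfp36. Hexim1 and Mepce hold the elongation factor P-TEFb inactive in the 7SK complex, Jun is an AP-1 subunit and Zfp36 destabilizes cytokine mRNAs. Hexim1 in CD8 T cells was at 63.6 CPM (57.8 to 69.9) after PD1d/2V/33 and 11.4 CPM (8.75 to 14.7) after PD1d/IL2V, with 42.3 CPM (34.2 to 51.8) after PD1d/33 and 25.6 CPM (10.3 to 52.8) after untransduced ACT. Rnf19b, a ubiquitin ligase, was in myeloid cells at 394 CPM (359 to 431) after PD1d/2V/33 and 69.4 CPM (61.4 to 78.3) after PD1d/IL2V, with 157 CPM (121 to 199.9) after PD1d/33 and 32.5 CPM (11.9 to 70.7) after untransduced ACT. Hnrnpa0, which binds AU-rich mRNAs, was in NK cells at 125 against 33.4 CPM, with 98.4 and 31.2 CPM in the same other libraries. In these gates PD1d/33, from the other run, was nearer to PD1d/2V/33 for Hexim1 and Hnrnpa0 and nearer to PD1d/IL2V for Rnf19b. For Rnf19b this changed with the gate. In NK cells Rnf19b was at 38.3 CPM after PD1d/33, nearer to PD1d/2V/33 at 51.9 than to PD1d/IL2V at 6.32 CPM. Hexim1 was there at 40.1 CPM, between PD1d/IL2V at 11.1 and PD1d/2V/33 at 75.5 CPM. Untransduced ACT, from the same run as PD1d/2V/33, was nearer to PD1d/IL2V for Hexim1 in CD8 T, Hnrnpa0 in NK and Rnf19b in myeloid cells. In NK cells Rnf19b was at 26.7 CPM after untransduced ACT, between the compared libraries. Zfp36 in myeloid cells was at 1061 CPM (1004 to 1120.1) after PD1d/2V/33 and 4622 CPM (4555 to 4691) after PD1d/IL2V, with 1394 CPM (1282 to 1513) after PD1d/33 and 3209 CPM (2956 to 3478) after untransduced ACT. Jun in NK cells was at 54.2 CPM (45.6 to 63.9) after PD1d/2V/33 and 176 CPM (162 to 190.3) after PD1d/IL2V, with 108 and 272 CPM. Immediate-early genes are known to answer to tissue dissociation, and the part of sample handling in these values was not tested.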

How the data were processed

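Tumor-infiltrating CD45+ cells were sequenced with the 10x Genomics 5' kit, and the authors aggregated the libraries into 1 matrix of UMI counts, deposited as raw counts per gene and barcode. The submitters' processing notes name Cell Ranger 2.2.0, bcl2fastq and GRCm38, the study's methods another Cell Ranger version, and whether aggregation subsampled reads is not given in the sources used here. Barcodes per library are round numbers. The study also limited ribosomal UMIs to 5 to 60%, tried here as an alternative. Barcodes were mapped to libraries by suffix and the aggregation list. From 27998 genes, UMIs were summed per gate as CPM, rows with 1 of 56 duplicated symbols were added up, and exact Poisson, Clopper-Pearson and binomial ratio 95% intervals were computed in Python 3.11.15 (scipy 1.17.1); a count of 0 was limited at 3 counts. TMM factors came from edgeR 4.0.16 as an alternative scaling, with no test. No doublet caller was run, and doublets were kept; leaving out cells over 20000 UMIs was an alternative. Cells were thinned to 2000 UMIs with a fixed seed for shares. The text names, per gate, the 10 highest and 10 lowest ratios, genes past 2-fold in all 4 gates and members of 30 gene lists, of which some genes are not reported here; the gates, members and lists were chosen with earlier results of these data known. The interval code was tested on simulated data. Columns of samples outside the series numbered 0.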

Additional observations from a re-analysis of the deposited data

Results flagged for a closer look

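Several genes were past 2-fold in opposite directions in different gates of the same 2 libraries, and none of these differences between gates was tested. Granzyme and cytokine genes were among them. Gzmc had a log2 ratio of 1.61 in CD8 T cells and -2.87 in CD4 T cells, where 1 cell held 91.1% of its UMIs after PD1d/IL2V. Csf2 stood at -2.55 in NK cells and 3.32 in CD4 T cells, on few cells in both. Ccl1, a ligand of CCR8, stood at -1.46 in CD8 T cells, -3.22 in NK cells and 1.44 in CD4 T cells. Its CD8 T ratio turned to 0.46 under the tighter cell filter, and its NK ratio rested on 2 and 9 cells. Ctla4 was at 1.12 in NK cells and -2.05 in CD4 T cells. The immediate-early gene Fos was at -1.12 in NK cells, 1.97 in CD4 T cells and -1.87 in myeloid cells. Ifitm1 was at 1.63 in CD8 T cells, 1.46 in NK cells and -1.14 in myeloid cells. Anxa1, which encodes annexin A1, was at 1.53 in CD8 T cells and -1.26 in NK cells, Bnip3 at 1.30 in CD8 T cells and -1.02 in myeloid cells, and Hbs1l at 1.05 in NK cells and -1.34 in CD4 T cells.

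T cells outside the CD8 T and CD4 T gates, 236 after PD1d/2V/33 and 334 after PD1d/IL2V, entered no ratio of the report, and 218 and 295 of them had neither a Cd4 nor a CD8 transcript. A CD3 transcript alone made them T cells here, and NK marker transcripts did not exclude a cell. Whether other lymphocytes were among them was not tested. After PD1d/2V/33 they held Il13 at 422 CPM, Il5 at 127 CPM, Il4 at 61.5 CPM and Il1rl1 at 194 CPM. The corresponding levels after PD1d/IL2V were 13.9 CPM (9.51 to 19.6) for Il13, 1.74 CPM (0.474 to 4.45) for Il5, 3.04 CPM (1.22 to 6.27) for Il4 and 12.2 CPM (8.09 to 17.6) for Il1rl1. These differences were not tested.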

How the results depend on the processing

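No paired analysis was possible because each group was 1 library. The measured differences in CD8 T, NK, CD4 T and myeloid shares were 15.9, -4.70, -1.13 and -9.57 percentage points. The tighter filter of the study's later experiment gave 12.7 for CD8 T, -10.2 for NK and -4.64 for myeloid cells. Its lower limits on genes and UMIs are looser than those of the main filter. Gates from thinned cells gave -8.50 for NK cells, and leaving out S100a8/9-high cells, chosen after seeing the data, gave -7.19 for myeloid cells. Counts of genes past 2-fold moved by over 1.5 times as follows. With 1 CPM added they were 386 higher and 396 lower in CD8 T, 273 and 569 in NK, 504 and 356 in myeloid cells, and 423 lower in CD4 T cells. With at least 200 UMIs they were 74 higher in NK, 44 higher and 93 lower in CD4 T and 115 higher in myeloid cells, and with at least 10 UMIs 252 and 362 in CD4 T cells, since fewer or more genes were measured. TMM gave 192 and 69 in NK and 158 lower in CD4 T cells. The tighter filter gave 169 higher of 7527 measured genes in CD8 T cells. Without Foxp3-positive cells, also chosen after seeing the data, 113 of 2165 measured genes were lower in CD4 T cells, beside 238 of 4661 with all cells. Other UMI limits per gene, 1 CPM added and the TMM shifts could not turn the sign of a ratio past 2-fold. Over all genes the tighter filter kept 78 of 96 higher and 68 of 99 lower in CD8 T cells. TMM kept 112 of 112 and 69 of 154 in NK cells. Direction was counted only for list members, the 10 highest and lowest genes per gate, and genes alike in all 4 gates or opposite between gates. Of these 278 gene ratios past 2-fold, in 3661 values under all alternatives, 3656 kept their direction and 3496 stayed past 2-fold. The 5 that reversed were Ccl1 in CD8 T cells at 0.46 under the tighter filter, Il2 in CD4 T cells at -0.39 without its leading cell, and, with ribosomal shares of 5 to 60%, G0s2 at 0.54, Retnlg at 2.14 and S100a9 at 0.85 in myeloid cells; the cause was not tested. Leaving out the genes that define a gate from its lists was also chosen after seeing the data. Leaving out each gene's leading cell, chosen likewise, kept 77 of 80 named ratios past 2-fold. The 122 and 172 CD4 T cells held 713911 and 1210437 UMIs, the least depth of the gates.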

Other observations

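After PD1d/2V/33 more Il13 and Il5 UMIs lay outside the CD4 T gate than in it. In T cells without an assigned lineage Il13 had 734 UMIs in 40 cells after PD1d/2V/33 and 32 UMIs in 2 cells after PD1d/IL2V, beside 331 UMIs in 23 cells and 10 UMIs in 3 cells in the CD4 T gate. Il5 had 220 UMIs in 38 cells and 4 UMIs in 2 cells, and Il1rl1 338 UMIs in 59 cells and 28 UMIs in 12 cells. After PD1d/33 there were only 112 such T cells, beside 236 after PD1d/2V/33. They held 20 UMIs in 5 cells for Il13, 61 UMIs in 4 cells for Il5 and 43 UMIs in 13 cells for Il1rl1. These were 39.0, 119 and 83.9 CPM after PD1d/33, beside 422, 127 and 194 CPM after PD1d/2V/33. Calca, the precursor of the neuropeptide CGRP that type 2 lymphocytes also make, was at 88.6 CPM (75.1 to 104) and 3.04 CPM (1.22 to 6.27) in these T cells and at 127 CPM (103 to 157) and 16.5 CPM (10.1 to 25.5) in CD4 T cells.

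Cells assigned to no gate, 84 and 65 in number, also held such transcripts. Il13 had 125 UMIs in 7 cells after PD1d/2V/33, 2 UMIs in 1 cell after PD1d/IL2V and 245 UMIs in 5 cells of only 16 after PD1d/33. Areg, the growth factor amphiregulin, was at 544 CPM (489 to 604), 20.98 CPM (11.99 to 34.1) and 6293 CPM (5752 to 6872) in the same order of libraries. These Areg levels came from 18, 3 and 4 cells, and 1 cell held 41.1%, 87.5% and 68.2% of the UMIs. Gzmf had 2060 UMIs in 11 cells after PD1d/2V/33 and 421 UMIs in 3 cells after PD1d/IL2V in the unassigned cells. Of these UMIs 95.4% and 49.9% were in 1 cell. Among T cells without an assigned lineage, in the same order, Gzmf had 1266 UMIs in 18 cells and 1 UMI in 1 cell. There 1 cell held 82.6% of the UMIs after PD1d/2V/33. No cell type name is given to these cells here, and T cell stands only for a CD3 transcript.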
